A study of Rattus norvegicus with 18 samples.

Results

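The transcripts described here are the abundant ones among those listed for both strains of rat in a study of the abdominal aorta. They were chosen by their values: a mean of at least 20 over the 12 libraries of the strains and a value above 0 in each of the 12. Transcripts of the assembled loci MERGE.19062 and MERGE.16214 were left out. Of 3659 listed transcripts 139 reached the mean, 5 of these belonged to the left-out loci and 32 others were listed at 0 in some library, which left 102 members (2.79% of the list). Ensembl identifiers (ENSRNOT numbers) were carried by 62 members and identifiers of a merged assembly (MERGE numbers) by 40. The member just inside the limit was MERGE.7914.1, with a mean of 20.1, and the transcript just outside it was MERGE.23686.1, with 19.9.

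RNA was sequenced from the abdominal aorta of 18 rats after depletion of ribosomal RNA. The groups were WKY (Wistar Kyoto), a normotensive strain given double distilled water, SHR (the spontaneously hypertensive rat) given the same water, and SHR+ETH, SHR dosed with ethoxysanguinarine (ETH, a plant alkaloid) at 3.5 mg/kg/d, whose labels name the water as well. Each group had 6 animals, all were dosed into the stomach for 10 weeks, and the labels state no age. The labels name the libraries by group and animal number, and those names are kept below.

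The aortic wall is built mainly of smooth muscle cells in layers of elastic fibres, lined by endothelium and wrapped in an adventitia of fibroblasts, nerves and fat. In hypertension the wall thickens and its matrix changes, a process called vascular remodelling. SHR and WKY are inbred strains of common ancestry that also differ at many places in the genome, so a transcript can differ between them through the gene variant carried by the strain as well as through blood pressure, and the design cannot tell these apart. In rRNA-depleted libraries non-coding RNAs are sequenced along with messenger RNAs.

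The tables give a signal value without a named unit, and the depth of the libraries is unknown. Whether the values are per length is not stated either, so an order of members by abundance is an order of deposited values. The tables do not pair identifiers with gene names, and 0 of the 102 member identifiers were found in the RefSeq gene table (GRCr8) used here, so no gene role, cell type marker or sequence is given and the tissue label could not be checked. Listed values summed to between 30307 and 50521 in WKY libraries and 23696 and 50052 in SHR libraries. No libraries were identical.

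The members, although few, carried most of the listed signal: between 62.2% and 81.3% of it in a WKY library and between 53.2% and 80.5% in an SHR library. The most abundant, ENSRNOT00000040993, set much of that range. Its values were 9612, 23468, 24636, 15193, 11552 and 12848 in WKY 1 to 6, and 1812, 1941, 8299, 6593, 10186 and 28192 in SHR 3, 40, 41, 48, 59 and 60. SHR 60 was the highest of all 12 libraries and SHR 3 and SHR 40 were the lowest, so the strains overlapped. On the log2(value + 1) scale SHR minus WKY was -1.30 (SE 0.58, n = 6 each, limma adjusted p = 0.0501), which did not pass. Scaling to equal sums without this transcript took it just past the threshold (-1.31, limma adjusted p = 0.0498). Without SHR 60 it was -1.74 (limma adjusted p = 0.0104), and quantile normalization took it to 0.00, because it held the top rank in every library, which that method sets equal.

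The members of rank 2 and 3 by mean were lower in SHR. ENSRNOT00000016540 stood at 1529, 3533, 2152, 1940.3, 1043 and 2039 in WKY and at 669, 528, 634, 256, 710.3 and 1389.7 in SHR. Only SHR 60 reached into the WKY range (limma log2 fold change -1.62 with SE 0.41, adjusted p = 0.00518). ENSRNOT00000087662 stood at 615, 1778, 1439.5, 953, 437 and 1219 in WKY and at 392, 399.7, 386, 132, 394 and 928 in SHR (limma log2 fold change -1.35 with SE 0.47, adjusted p = 0.0218). Here SHR 60 lay above WKY 1 and WKY 5, and WKY 5 just above the other SHR libraries.

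The next 3 by mean were higher in SHR. MERGE.26903.1 stood at 147, 129.6, 212, 206, 214 and 1123 in WKY and at 339, 1365, 1226, 1314, 1139.6 and 1038 in SHR. In each strain 1 animal lay on the side of the other strain, WKY 6 among the high values and SHR 3 among the low ones (limma log2 fold change 2.01 with SE 0.53, adjusted p = 0.00643). ENSRNOT00000022846 ranged from 129 to 666 in WKY (median 365) and from 339 to 1439 in SHR (median 979.7), again with SHR 3 the lowest of its strain (limma log2 fold change 1.40 with SE 0.46, adjusted p = 0.0170). ENSRNOT00000044222 ranged from 278 to 509 in WKY and from 487 to 1513 in SHR (limma log2 fold change 1.21 with SE 0.34, adjusted p = 0.00968), where WKY 1 was the only WKY animal within the SHR range and SHR 3 was the highest. The plot of the most abundant members by library shows these single animals.

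**Figure D1:**
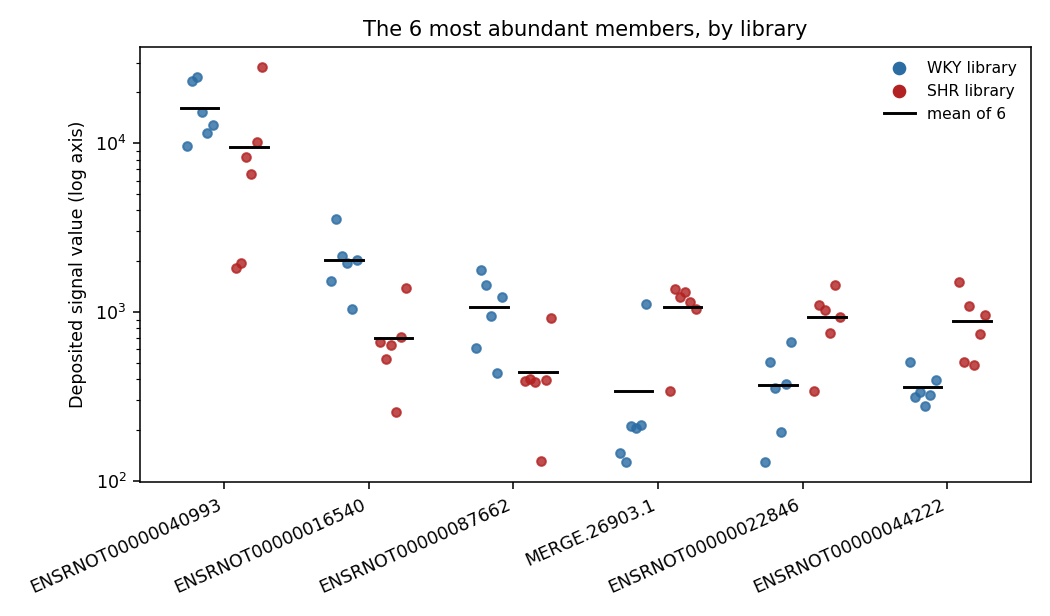
Deposited signal values (log axis, no unit named) of the 6 members with the highest mean, 1 point per library, WKY in blue and SHR in red, with the mean of 6 as a black bar. SHR 60 is the top red point of the first 3 members, and MERGE.26903.1 has 1 WKY library at 1123 and 1 SHR library at 339.

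Nearly every member differed between the strains, which the list itself makes likely. Of the 102 members, all of which passed the filter on low values, 50 were higher and 47 lower in SHR at a limma adjusted p under 0.05, where 44.4% and 38.1% of all 1585 tested transcripts were called higher and lower (82.5% together). The smallest difference of any member was 0.98 on the log2 scale in absolute size, and 4 of 102 were under 1. With a pseudocount of 0.1 in place of 1 the smallest was 0.99. No member had nearly equal means of log values in both strains. By what criterion the transcripts were listed remains not given in the sources used here. If it used these libraries, the counts describe that choice and the adjusted p-values are too small. In bulk tissue, fewer cells of a type and less RNA per cell cannot be told apart.

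How a member reached the mean of 20 also bears on its difference. In 58 members the mean was at least 20 in both strains, and in 25 every library was. Another 26 had it through WKY only and 18 through SHR only, and these had to differ. Among the members at 20 or more in both strains 32 were called higher and 21 lower, so the split between directions depended on this choice. For these 58 the median log2 fold change was 1.33 among those called higher, against 1.15 for all transcripts called higher, and -1.37 among those called lower, against -1.17. Most other transcripts had lower values, where the pseudocount of 1 makes changes smaller, and its part in this contrast was not tested. Differences above 2 in absolute size were found in 7 higher and 4 lower of the 58 (13.4% of all tested, in either direction). The strains did not overlap in 9 of the 58, 5 lower and 4 higher in SHR, where 24.3% of all tested transcripts did not. Over all 102 members, those that had to differ included, 30 differed by more than 2 and 32 did not overlap, counts that follow in part from the choice of members. Ensembl members were called higher in 32 and lower in 26 cases, assembled members in 18 and 21. These counts include the members that had to differ. Shares by kind of identifier over all tested transcripts were not computed, so no difference between the kinds is read from them.

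**Figure D2:**
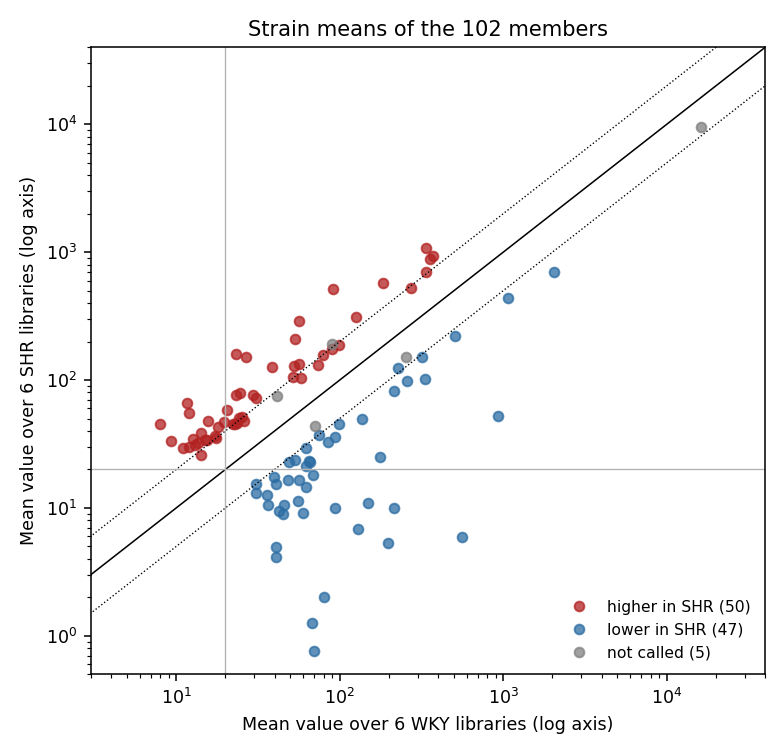
Mean value over 6 SHR libraries against mean value over 6 WKY libraries for the 102 members (log axes), red where called higher in SHR, blue where called lower, grey where not called. The solid line marks equal means, dotted lines a 2-fold difference and grey lines the mean of 20. Most points lie outside the dotted lines, and points under the grey horizontal line are members that reached the mean of 20 through WKY only.

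The members with the widest drop at the pseudocount of 1 were ENSRNOT00000052292 and MERGE.23842.1. ENSRNOT00000052292 was at 215, 1199, 180.3, 190.3, 761 and 823 in WKY and at 3.67, 3.00, 4.91, 3.04, 20.1 and 0.750 in SHR (limma log2 fold change -6.39 with SE 0.64, adjusted p = 1.90e-06). Every SHR animal lay far under every WKY animal, and SHR 59 stood above the other SHR animals. MERGE.23842.1 was at 66.6, 96.5, 87.5, 57.1, 38.4 and 72.9 in WKY and at 0.633, 1.06, 0.853, 0.336, 0.552 and 1.14 in SHR (limma log2 fold change -5.29 with SE 0.29, adjusted p = 7.05e-09). Because its SHR values were near the pseudocount, the size of that change depends on it, and with 0.1 it was -6.37. At 0.1 MERGE.25770.1, described below, came before it at -6.48.

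The members with the widest rise had uneven groups. ENSRNOT00000004290 was between 174 and 382 in all SHR animals, but in WKY it was at 333 in WKY 1 and between 0.628 and 1.24 in the other 5 (limma log2 fold change 5.95 with SE 1.08, adjusted p = 0.000562). WKY 1 alone therefore had the SHR level, and without it the log2 fold change was 7.19 (limma adjusted p = 2.89e-09). With a pseudocount of 0.1 and all animals it was 6.72. MERGE.22352.1 was at 18.3, 17.9, 0.0161, 0.645, 1.02 and 10.1 in WKY and at 36.3, 28.3, 25.0, 83.0, 95.0 and 4.60 in SHR (limma log2 fold change 2.75 with SE 0.86, adjusted p = 0.0143). WKY 1, WKY 2 and WKY 6 lay above SHR 60, and with a pseudocount of 0.1 the log2 fold change was 3.58.

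The other 4 members that did not pass, beside the most abundant, were ENSRNOT00000070805 (-1.29, limma adjusted p = 0.0675), ENSRNOT00000010481 (-1.03, 0.0780), MERGE.23029.1 (1.33, 0.0517) and ENSRNOT00000018603 (1.10, 0.0587), given here as log2 fold changes of SHR over WKY. They were named because so few did not pass. All 5 had a mean of at least 20 in both strains. A miss at this threshold does not show equal levels. Quantile normalization took ENSRNOT00000018603 past the threshold (limma adjusted p = 0.0446).

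Animals of the same strain differed widely. The median member had a 3.68-fold range between its highest and lowest WKY animal and a 3.16-fold range in SHR, with a median coefficient of variation of 46.6% and 41.3%. The range exceeded 10-fold in 12 members in WKY and 16 in SHR, and it was under 2-fold in 13 and 24. The SD of log2(value + 1) was larger in WKY for 63 members and larger in SHR for 39. The steadiest member in WKY was MERGE.22162.1, between 77.2 and 101, and in SHR it was ENSRNOT00000093220, between 138 and 199, both picked after their values were seen. The value of the median member per library stayed between 38.6 and 56.1 in WKY and between 35.1 and 42.3 in SHR.

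To see which members rise and fall together, Pearson's r of log2(value + 1) was taken for each of the 5151 pairs of members over the 6 animals of each strain on its own, which keeps the strain difference out. In WKY 301 pairs (5.84%) had r of at least 0.8, in SHR 335 (6.50%), and 68 pairs (1.32%) had it in both. These 68 were 22.6% of the WKY pairs and 20.3% of the SHR pairs. Among all tested transcripts with any spread in both strains, 3.40% of pairs reached 0.8 in WKY, 3.38% in SHR and 0.181% in both. These others had lower values, and the part of measurement noise in that contrast was not tested. Pairs with r of -0.8 or lower in both strains numbered 13, and 4 pairs were at 0.8 or more in WKY and -0.8 or less in SHR. Another 4 were at -0.8 or less in WKY and 0.8 or more in SHR.

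**Figure D3:**
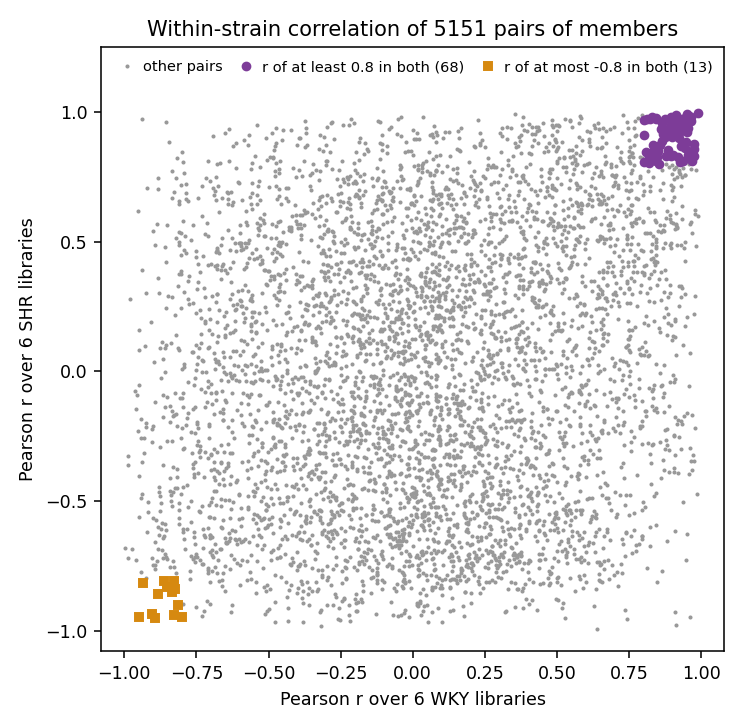
Pearson r of each of the 5151 pairs of members over 6 SHR libraries against its r over 6 WKY libraries. Purple points are the 68 pairs with r of at least 0.8 in both strains, orange squares the 13 pairs with r of -0.8 or lower in both, and grey points all other pairs, which fill the square.

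With 6 animals a strain, single pairs are weakly supported. The exact permutation test over 720 orders gave no adjusted p under 0.358 in 10302 tests (2 strains, two-sided, Benjamini-Hochberg), and 901 tests had an unadjusted p under 0.05. With 720 orders the exact permutation p cannot be under 0.00139, so no single pair could pass on its own among this many tests. A high adjusted p therefore says little about how closely a pair moved. When the 2 animals farthest from the median of the more abundant member were left out in each strain, 15 of the 68 pairs still had r of at least 0.8 in both strains, 26 were lower in WKY and 45 in SHR. Over all 68 pairs, 52 members took part, and ENSRNOT00000009183 had the most partners, 10. The pairs are therefore given as a description of these 12 animals.

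The pair with the highest lower r of both strains was ENSRNOT00000087662 with ENSRNOT00000009183. ENSRNOT00000009183 was at 43.5, 102, 89.1, 64.3, 29.1 and 67.4 in WKY and at 21.4, 18.9, 19.5, 7.15, 20.6 and 48.7 in SHR, so that ENSRNOT00000087662 was 14.1 to 18.1 times as high in WKY animals and 18.3 to 21.2 times in SHR animals. In WKY they had r = 0.990 (exact permutation p = 0.00139, adjusted 0.358) and in SHR r = 0.995 (exact permutation p = 0.0208, adjusted 0.464). Spearman's rho was 1.00 (exact permutation p = 0.00278, adjusted 0.362) in WKY and 0.600 (exact permutation p = 0.242, adjusted 0.818) in SHR. Without WKY 5 and WKY 1 r was 0.948, but without SHR 48 and SHR 60, the lowest and the highest SHR animal, it was -0.246, so the relation in SHR rests on those animals.

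ENSRNOT00000072502 and ENSRNOT00000034166 moved together also without such animals. ENSRNOT00000072502 was at 74.0, 60.5, 15.0, 6.48, 16.9 and 57.6 in WKY and at 88.3, 99.0, 131, 84.9, 243 and 113 in SHR, and ENSRNOT00000034166 at 30.9, 29.9, 7.99, 3.31, 15.0 and 35.6 and at 34.8, 38.1, 68.9, 34.0, 118 and 52.8. WKY 4 was the lowest and SHR 59 the highest for both. In WKY they had r = 0.966 (exact permutation p = 0.00694, adjusted 0.405) and rho 0.829 (exact permutation p = 0.0583, adjusted 0.609). In SHR they had r = 0.981 (exact permutation p = 0.00139, adjusted 0.358) and rho 1.00 (exact permutation p = 0.00278, adjusted 0.362). Without WKY 4 and WKY 1 r was 0.943, and without SHR 59 and SHR 48 it was 0.986. Both were higher in SHR (limma log2 fold change 2.04 with SE 0.56, adjusted p = 0.00822 and limma log2 fold change 1.66 with SE 0.54, adjusted p = 0.0171).

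In the next pair the members stood apart in strain direction. MERGE.5639.1 was at 79.8, 149, 184, 309, 302 and 256 in WKY and at 70.0, 95.9, 107, 106, 58.1 and 55.6 in SHR (limma log2 fold change -1.28 with SE 0.39, adjusted p = 0.0133), while ENSRNOT00000018603 was at 5.78, 26.3, 43.1, 55.8, 71.2 and 47.0 and at 72.1, 79.0, 95.4, 98.6, 54.3 and 48.6 and did not pass in the other direction. MERGE.5639.1 was 4.24 to 13.8 times as high as ENSRNOT00000018603 in WKY and 0.971 to 1.21 times in SHR. Within WKY they had r = 0.964 (exact permutation p = 0.00278, adjusted 0.358) and rho 0.943 (exact permutation p = 0.0167, adjusted 0.484), and within SHR r = 0.967 (exact permutation p = 0.00278, adjusted 0.358) and rho 0.943 (exact permutation p = 0.0167, adjusted 0.484). Without the 2 animals farthest out r was 0.798 in WKY and 0.892 in SHR.

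Members were joined into groups in which every pair had r of at least 0.7 in both strains, which gave 8 groups of 3 or more with 29 members. The groups were formed from these values and get no test. The largest had 6 members and was led by ENSRNOT00000016540 and ENSRNOT00000087662, with r between 0.730 and 0.990 in WKY and between 0.759 and 0.995 in SHR. Its other members were ENSRNOT00000017325, ENSRNOT00000009183, MERGE.2346.1 and ENSRNOT00000055447. On average over the members, log2(value + 1) lay 0.86 above the strain mean in WKY 2 and at -0.87 from it in WKY 5, and in SHR at 1.18 in SHR 60 and -1.30 in SHR 48. The other SHR animals lay between -0.19 and 0.15, so SHR 48 and SHR 60 set the pattern there. ENSRNOT00000016540 and ENSRNOT00000087662 had r = 0.948 (exact permutation p = 0.00139, adjusted 0.358) in WKY and r = 0.981 (exact permutation p = 0.0250, adjusted 0.477) in SHR, with rho 1.00 (exact permutation p = 0.00278, adjusted 0.362) and 0.657 (exact permutation p = 0.175, adjusted 0.799). Without SHR 48 and SHR 60 their r in SHR was -0.503, and without WKY 5 and WKY 2 it was 0.980 in WKY. When log2 values were centred on each library's median over the members, 14 of 15 pairs kept r of at least 0.7 in both strains.

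Of these 6 members 5 were lower in SHR and 1, ENSRNOT00000055447, was higher. It was at 8.45, 30.8, 23.2, 11.9, 10.7 and 18.6 in WKY and at 41.8, 34.1, 33.7, 23.7, 45.4 and 41.8 in SHR (limma log2 fold change 1.15 with SE 0.36, adjusted p = 0.0138). Between animals it followed the other 5 by the limit of 0.7, but it had only 3 partners at 0.8 or more in both strains. Its r to ENSRNOT00000016540 was 0.837 in WKY (exact permutation p = 0.0278, adjusted 0.488). In SHR it was 0.837 as well (exact permutation p = 0.0444, adjusted 0.541). Between strains ENSRNOT00000055447 ran the other way. Most pairs did not do this: 57 of the 68 pairs (83.8%) joined members with the same direction between strains, and 11 joined opposite ones. Over all 5151 pairs of members 49.5% had the same direction. Direction here is the sign of the log2 fold change, also for members that did not pass. The 68 pairs share 52 members, and ENSRNOT00000009183 alone is in 10 of them. They are therefore not independent, and the contrast between these shares was not tested.

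The next 3 groups held 4, 4 and 3 members, and each of their members was lower in SHR. On average over the members, WKY 5 and SHR 48 were the lowest animals of their strains in each of these groups, and SHR 60 was the highest. The same held in the largest group. These groups thus share much of the same order of animals and are not read as separate patterns. The group led by ENSRNOT00000031418 and ENSRNOT00000073655 also held MERGE.23842.1 and ENSRNOT00000049706, with r between 0.922 and 0.976 in WKY and between 0.806 and 0.987 in SHR, and all 6 pairs kept r of at least 0.7 after centring. MERGE.23842.1 lay between 0.336 and 1.14 in SHR, near the pseudocount, so its r in SHR describes small differences between low values. ENSRNOT00000031418 was at 161, 277, 266, 178, 109 and 187 in WKY and at 4.59, 5.66, 4.76, 4.12, 4.51 and 8.04 in SHR, and ENSRNOT00000073655 at 89.1, 201, 173, 104, 71.2 and 142 and at 6.25, 7.31, 6.17, 5.63, 5.53 and 10.3 (limma log2 fold change -3.99 with SE 0.33, adjusted p = 3.57e-07). WKY 2 and WKY 3 were high and WKY 5 low in WKY, and SHR 60 was highest in SHR. The leaders had r = 0.958 (exact permutation p = 0.00139, adjusted 0.358) in WKY and r = 0.987 (exact permutation p = 0.00694, adjusted 0.405) in SHR, with rho 1.00 (exact permutation p = 0.00278, adjusted 0.362) and 0.886 (exact permutation p = 0.0333, adjusted 0.552), and without the 2 farthest animals r was 0.896 and 0.658. SHR values stayed within 1.95-fold for ENSRNOT00000031418, although its level lay far under that of WKY. That strain difference was 30.6-fold in the fit of log2(value + 1), where the pseudocount makes it smaller than in the values themselves.

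The group led by ENSRNOT00000073321 and ENSRNOT00000024659 also held ENSRNOT00000077579 and MERGE.3522.1, with r between 0.763 and 0.949 in WKY and between 0.828 and 0.940 in SHR. ENSRNOT00000073321 was at 119, 339, 154, 325, 92.4 and 256 in WKY and at 7.62, 9.31, 13.2, 6.43, 8.93 and 13.9 in SHR (limma log2 fold change -4.18 with SE 0.39, adjusted p = 1.17e-06), whereas ENSRNOT00000024659 was at 81.9, 87.9, 63.3, 94.4, 49.2 and 71.9 and at 37.2, 37.5, 38.0, 25.7, 33.1 and 52.6 (limma log2 fold change -0.98 with SE 0.30, adjusted p = 0.0136). Both were lowest in WKY 5 and in SHR 48 and highest in SHR 60, with changes between strains of very different size. They had r = 0.763 (exact permutation p = 0.0806, adjusted 0.622) in WKY and r = 0.828 (exact permutation p = 0.0264, adjusted 0.479) in SHR, with rho 0.771 (exact permutation p = 0.103, adjusted 0.705) and 0.943 (exact permutation p = 0.0167, adjusted 0.484), and r of 0.431 and 0.766 without the 2 farthest animals. The group of ENSRNOT00000021055 and ENSRNOT00000033253 had ENSRNOT00000003921 as its other member and r between 0.828 and 0.928 in WKY and between 0.905 and 0.981 in SHR. ENSRNOT00000021055 was at 472, 818, 658, 418, 245 and 430.4 in WKY and at 236, 159, 202, 94.0, 284 and 345 in SHR (limma log2 fold change -1.22 with SE 0.40, adjusted p = 0.0167), and ENSRNOT00000033253 at 53.9, 105, 104, 43.8, 37.1 and 61.2 and at 1.15, 1.01, 1.11, 0.628, 1.42 and 2.24 (limma log2 fold change -4.84 with SE 0.33, adjusted p = 4.21e-08). Its SHR values were near the pseudocount, and with 0.1 its log2 fold change was -5.61. Its r in SHR therefore describes small differences between low values. WKY 2 and WKY 3 were high and SHR 48 low for both. The ratio of ENSRNOT00000021055 to ENSRNOT00000033253 was 6.35 to 9.55 in WKY animals and 149.8 to 205 in SHR animals, with r = 0.928 (exact permutation p = 0.00694, adjusted 0.405) in WKY and r = 0.926 (exact permutation p = 0.0111, adjusted 0.419) in SHR, rho of 0.943 (exact permutation p = 0.0167, adjusted 0.484) and 1.00 (exact permutation p = 0.00278, adjusted 0.362), and r of 0.932 and 0.943 without the 2 farthest animals.

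The group led by ENSRNOT00000052292, the member with the widest drop, also held members that were higher in SHR, ENSRNOT00000016897 and ENSRNOT00000022863. ENSRNOT00000016897 was at 16.4, 47.5, 4.84, 10.5, 32.8 and 26.7 in WKY and at 42.4, 29.6, 57.5, 52.1, 249.7 and 27.5 in SHR (limma log2 fold change 1.52 with SE 0.60, adjusted p = 0.0336), and ENSRNOT00000022863 at 23.7, 41.2, 15.6, 14.3, 26.0 and 21.3 and at 49.0, 47.5, 50.0, 39.3, 63.9 and 27.8 (limma log2 fold change 0.98 with SE 0.34, adjusted p = 0.0207). All 3 were highest in WKY 2 and in SHR 59 and lowest in SHR 60. ENSRNOT00000052292 was 13.1 to 37.2 times as high as ENSRNOT00000016897 in WKY animals and 0.0272 to 0.101 times in SHR animals. They had r = 0.911 (exact permutation p = 0.0153, adjusted 0.440) in WKY and r = 0.944 (exact permutation p = 0.00694, adjusted 0.405) in SHR, with rho 0.943 (exact permutation p = 0.0167, adjusted 0.484) and 0.943 (exact permutation p = 0.0167, adjusted 0.484), and r of 0.933 and 0.622 without the 2 farthest animals. The animals left out in SHR were SHR 59 and SHR 60. The call of ENSRNOT00000016897 between strains was lost without SHR 59 (log2 fold change 1.09, limma adjusted p = 0.0692), and likewise without WKY 1, WKY 3, WKY 4, SHR 41 or SHR 48 (limma adjusted p from 0.0507 to 0.0740).

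**Figure D4:**
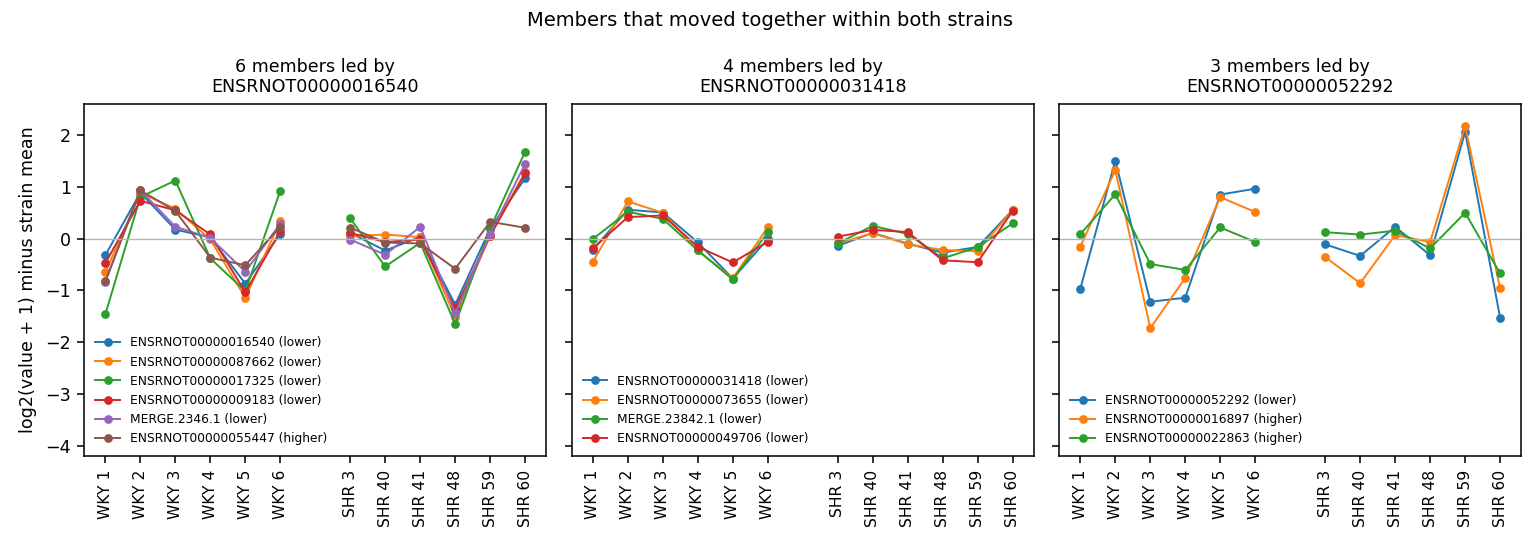
log2(value + 1) minus the mean of the strain, by library, for the members of 3 groups, with the strain direction (higher or lower in SHR) in the key. Lines join libraries for the eye only, as animals have no order. SHR 48 and SHR 60 lie at -1.30 and 1.18 on average in the left panel, the middle panel has a narrow spread in SHR, and in the right panel SHR 59 is high and SHR 60 low.

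The other 3 groups had 3 members each. ENSRNOT00000093220, MERGE.15860.1 and ENSRNOT00000021091 were all higher in SHR, with r between 0.885 and 0.975 in WKY and between 0.854 and 0.939 in SHR, and were lowest in WKY 1 and highest in WKY 6. ENSRNOT00000016883, ENSRNOT00000046667 and ENSRNOT00000015316 were all higher in SHR, with r between 0.945 and 0.969 in WKY and between 0.812 and 0.861 in SHR, and were high in WKY 1 and WKY 2. In the group of ENSRNOT00000000477, MERGE.5952.1 and ENSRNOT00000011892, with r between 0.772 and 0.834 in WKY and between 0.846 and 0.908 in SHR, 2 were higher and 1 lower in SHR. A further 18 groups held 2 members, and 37 members joined none, the most abundant transcript among them: 11 members had r of at least 0.8 with it in WKY, 0 in SHR and 0 in both.

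The pair that ran most against each other, chosen after its values were seen, was ENSRNOT00000017325 with ENSRNOT00000083682. ENSRNOT00000017325 was at 96.1, 465, 581, 204, 131 and 506 in WKY and at 106, 55.1, 75.9, 24.9, 92.1 and 260.4 in SHR, and ENSRNOT00000083682 at 81.9, 38.6, 26.7, 49.7, 81.7 and 40.3 and at 19.3, 22.2, 28.9, 41.2, 19.2 and 10.9. Animals low for ENSRNOT00000017325, such as WKY 1, WKY 5 and SHR 48, were high for ENSRNOT00000083682. They had r = -0.951 (exact permutation p = 0.00417, adjusted 0.380) in WKY and r = -0.946 (exact permutation p = 0.0194, adjusted 0.459) in SHR, with rho -0.943 (exact permutation p = 0.0167, adjusted 0.484) and -0.886 (exact permutation p = 0.0333, adjusted 0.552), and r of -0.810 and -0.451 without the 2 farthest animals. Both were nevertheless lower in SHR (limma log2 fold change -1.71 with SE 0.59, adjusted p = 0.0210 and limma log2 fold change -1.13 with SE 0.39, adjusted p = 0.0211).

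The 40 assembled members carried 37 locus numbers (the number before the last dot), and 2 loci had several members. They were described after their values were seen. At MERGE.16145 the 3 members moved in different directions between strains. MERGE.16145.81 was at 59.3, 58.1, 34.3, 55.3, 74.3 and 51.6 in WKY and at 8.17, 10.3, 13.5, 21.8, 2.88 and 11.3 in SHR (limma log2 fold change -2.34 with SE 0.40, adjusted p = 0.000318). MERGE.16145.80 was at 13.2, 35.0, 23.4, 13.9, 10.8 and 21.3 in WKY and at 57.6, 46.3, 53.0, 45.2, 38.1 and 40.9 in SHR (limma log2 fold change 1.31 with SE 0.33, adjusted p = 0.00546), and MERGE.16145.82 ranged from 10.4 to 18.1 in WKY and from 14.6 to 42.4 in SHR (limma log2 fold change 1.14 with SE 0.32, adjusted p = 0.00916). The first 2 did not overlap between strains. The sum of the 3 was 88.7 ± 14.7 in WKY and 90.4 ± 15.9 in SHR (SD, n = 6 each). MERGE.16145.81 made up 62.3% ± 9.62 of that sum in WKY and 12.3% ± 6.00 in SHR, MERGE.16145.80 22.3% ± 9.51 and 52.4% ± 7.59, and MERGE.16145.82 15.3% ± 1.75 and 35.3% ± 9.01 (SD, n = 6 each). The list holds 32 transcripts of this locus. How reads were split between overlapping transcripts remains not given in the sources used here, so the level of any 1 of them is uncertain.

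**Figure D5:**
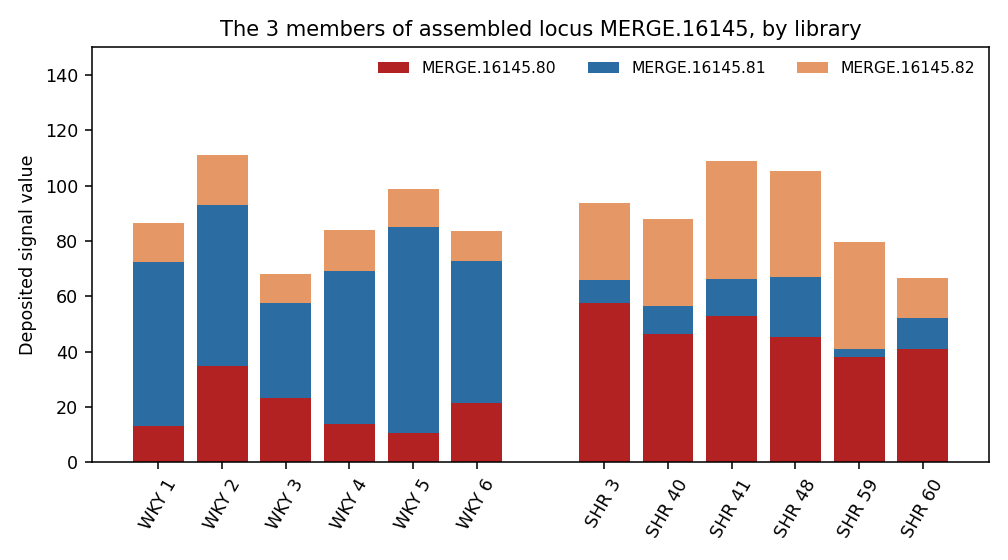
Deposited signal values (no unit named) of the 3 members of MERGE.16145, stacked by library. The stacks of both strains are of like height, with MERGE.16145.81 (blue) the widest band in every WKY library and MERGE.16145.80 (red) in all SHR libraries but SHR 59, where MERGE.16145.82 is slightly wider.

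At MERGE.25770 both members were lower in SHR. MERGE.25770.1 was at 140.2, 79.5, 72.9, 63.4, 62.3 and 63.4 in WKY and at 0.586, 6.67, 0.0892, 0.333, 0.141 and 4.31 in SHR (limma log2 fold change -5.16 with SE 0.50, adjusted p = 1.57e-06), and MERGE.25770.4 ranged from 18.8 to 37.7 in WKY and from 1.05 to 27.8 in SHR (limma log2 fold change -1.67 with SE 0.60, adjusted p = 0.0238). MERGE.25770.1 made up 71.1% ± 8.39 of their sum in WKY and 19.3% ± 31.2 in SHR (SD, n = 6 each). SHR 60 alone had 80.5%, and without it the SHR share was 7.04% ± 9.75 (SD, n = 5). With a pseudocount of 0.1 the log2 fold change of MERGE.25770.1 was -6.48. No 2 members of the same locus moved together in both strains by the limit of 0.8.

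The SHR+ETH tables list 7 of the 102 members, so the treated animals can be set beside the others only for these. The comparison with untreated SHR asks what ethoxysanguinarine did, and its fit covered the 199 testable transcripts of both lists. It shares the SHR libraries with the strain comparison, and the shared list appears to hold transcripts in which SHR differs, so values are given side by side. In SHR 6 of the 7 were higher than in WKY and 1 was lower. Of the 7, 1 passed between SHR+ETH and SHR, where 33.7% of the shared transcripts did, and in 0 of the 7 did the groups stand apart (5.53% of the shared transcripts).

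ENSRNOT00000010759 was the member that passed. It was at 152, 9.87, 121, 20.5, 5.63 and 11.1 in WKY, 287, 359, 53.3, 325, 215 and 27.8 in SHR and 11.2, 304, 27.2, 10.0, 6.51 and 12.3 in SHR+ETH 1, 2, 54, 58, 64 and 65. SHR+ETH 2 had an SHR-like value and the other 5 treated animals lay under every SHR animal (limma log2 fold change -2.77 with SE 0.90, adjusted p = 0.0426). The call was lost with a pseudocount of 0.1, without the filter and under both other scalings (limma adjusted p from 0.0521 to 0.0810), with log2 fold changes of -2.17 and -1.96 under the scalings. It was lost also without any 1 of SHR 3, SHR 40, SHR 41, SHR 48, SHR 59, SHR+ETH 54, SHR+ETH 64 or SHR+ETH 65 (log2 fold change -3.06 to -2.45, limma adjusted p from 0.0522 to 0.0827). Without SHR+ETH 2 it was kept, at -3.52. Between SHR and WKY its log2 fold change was 2.50 (limma adjusted p = 0.0225).

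The other 6 did not pass. MERGE.24399.1 had a mean of 272 ± 196 in WKY, one of 522 ± 167 in SHR and one of 213 ± 120.4 in SHR+ETH (limma log2 fold change -1.51 with SE 0.58, adjusted p = 0.0502) (SD, n = 6 each). ENSRNOT00000041891 had a mean of 126 ± 72.1 in WKY, one of 313 ± 137 in SHR and one of 124 ± 80.0 in SHR+ETH (limma log2 fold change -1.43 with SE 0.58, adjusted p = 0.0532). Treated animals of both ranged into the SHR values, from 49.2 to 357 for the first and from 45.7 to 271 for the other, and with the stricter filter or the robust fit both passed (limma adjusted p from 0.0431 to 0.0489). MERGE.1667.3 had a mean of 29.3 ± 15.2 in WKY, one of 77.0 ± 37.7 in SHR and one of 31.9 ± 14.5 in SHR+ETH (limma log2 fold change -1.20 with SE 0.59, adjusted p = 0.0850). MERGE.4985.1 had a mean of 24.6 ± 18.4 in WKY, one of 78.6 ± 17.8 in SHR and one of 39.4 ± 21.1 in SHR+ETH (limma log2 fold change -1.10 with SE 0.55, adjusted p = 0.0890). ENSRNOT00000020020 had a mean of 22.1 ± 19.4 in WKY, one of 45.6 ± 9.64 in SHR and one of 27.6 ± 22.2 in SHR+ETH (limma log2 fold change -1.18 with SE 0.66, adjusted p = 0.113). In these 3 the treated mean lay between those of WKY and SHR. MERGE.144.1 had a mean of 39.5 ± 9.62 in WKY, one of 17.4 ± 17.6 in SHR and one of 37.7 ± 12.2 in SHR+ETH (limma log2 fold change 1.71 with SE 0.71, adjusted p = 0.0556), the only 1 of the 7 that was lower in SHR than in WKY. The scaling of the libraries mattered: under quantile normalization MERGE.144.1 passed as higher in SHR+ETH (log2 fold change 2.43, limma adjusted p = 0.0155), ENSRNOT00000010759 did not, and the median of all 199 tested transcripts went from -0.85 to -0.26, while 17 called higher and 50 lower became 48 and 7. With equal sums, leaving out the most abundant of the shared transcripts, the split was 53 and 9 among 196 tested. Both scalings were set on the shared transcripts alone. As that list appears to hold transcripts in which SHR differs, such scaling can itself shift the split. Which scaling is right cannot be told from these values. The other 5 that did not pass had log2 fold changes between -0.90 and -0.32 under quantile normalization. The strain call of MERGE.24399.1 was lost without any 1 of WKY 2, 3, 4 or 5 or SHR 40 or 59 (log2 fold change 0.94 to 1.07, limma adjusted p from 0.0517 to 0.0569), and that of ENSRNOT00000020020 without WKY 2 or WKY 3 (limma adjusted p = 0.0576 and 0.0561).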

How the data were processed

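Signal values per transcript were used as deposited, 1 table per library. Per the file headers no unit is named, and per the submitters' processing notes limma was used, with no version. The aligner, quantification, genome build, transcript assembly and list criterion were not given in the sources used here. At most 28.1% of low values in a library (first 20 steps, tolerance 0.1) fell on whole steps, so reads were not recovered and depth is unknown. Each SHR+ETH table had 2024 blank rows, which were dropped.

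A transcript was tested when 6 or more of the 12 libraries compared had a value of 1 or higher, and the limit of 6 was kept when a library was left out. Those transcripts were fitted on log2(value + 1) with limma 3.58.1 in R 4.3.3 (lmFit, eBayes with trend, group as the only term), and p-values were adjusted over all transcripts tested. The limma and correlation steps were tested on simulated data. Correlations, exact permutation tests and complete-linkage groups used Python 3.11.15, numpy 2.4.6, pandas 2.3.3 and scipy 1.17.1. All tests are two-sided. The pseudocount makes fold changes of low transcripts too small. Members, lists and tests were chosen with earlier results of these data known. Named were the 6 most abundant members, the 2 with the largest rise and the 2 with the largest drop, the 2 most abundant members of the 5 largest groups, the 3 pairs with the highest lower r of both strains, the transcripts next to the limit and up to 6 members in the SHR+ETH tables. Others were named after their values were seen. Alternatives covered the pseudocount, filter, scaling, moderation, correlation measure and each library in turn. The scalings were set on the listed transcripts alone, and for SHR+ETH on the shared ones.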

Additional observations from a re-analysis of the deposited data

Results flagged for a closer look

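Among 64 groups of 6 values of named members, 12 held a library separated from the other 5 by a gap that, over the whole range, exceeds Dixon's critical value. Chance gives about 1 in 20 such groups for independent normal values of members not chosen by their values. These values are skewed, and some members were named for a high r within strains, which a far-out animal can raise. Such members also move together, so the 12 cannot be set against that rate. In 5 of them the library was SHR 60. ENSRNOT00000040993 had 28192 in SHR 60 and 1812 to 10186 in the rest. ENSRNOT00000087662 had 928 in SHR 60 and 132 to 399.7 in the rest. ENSRNOT00000073655 had 10.3 in SHR 60 and 5.53 to 7.31 in the rest. SHR 60 was the highest of its strain in all 3. ENSRNOT00000009183 had 48.7 in SHR 60 and 7.15 to 21.4 in the rest. MERGE.7914.1 had 18.9 in SHR 60 and 28.9 to 34.3 in the rest. In 3 cases it was SHR 59. ENSRNOT00000052292 had 20.1 in SHR 59 and 0.750 to 4.91 in the rest. ENSRNOT00000016897 had 249.7 in SHR 59 and 27.5 to 57.5 in the rest. ENSRNOT00000072502 had 243 in SHR 59 and 84.9 to 131 in the rest. The other 4 were single animals on the side of the other group. MERGE.26903.1 had 1123 in WKY 6 and 129.6 to 214 in the rest. MERGE.26903.1 had 339 in SHR 3 and 1038 to 1365 in the rest. ENSRNOT00000004290 had 333 in WKY 1 and 0.628 to 1.24 in the rest. ENSRNOT00000010759 had 304 in SHR+ETH 2 and 6.51 to 27.2 in the rest.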

How the results depend on the processing

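Between SHR and WKY, members called higher numbered 40 to 50 and members called lower 44 to 47 when each library was left out, and 48 to 52 and 46 to 48 under the other fits, but 32 and 21 when only members with a mean of at least 20 in each strain were counted, which by construction holds fewer members. All listed transcripts called numbered 1308, 2547 without the filter and 380 with the stricter one, as more and fewer were tested. When each library was left out 961 to 1083 were called, but there 1415 to 1443 were tested instead of 1585. Quantile normalization turned 704 higher and 604 lower into 632 and 656, with the median log2 fold change going from 0.63 to 0.52. With 1 library left out that median moved more, to -0.34 without SHR 40 (486 higher, 533 lower), 0.13 without SHR 48 and 0.76 without WKY 6. It fell without each SHR library and rose without each WKY library. Lower calls numbered 395 without WKY 4 and 400 without WKY 1. The filter still asked for 6 libraries in these fits, so the set of transcripts tested changed along with the animals. The part of that change in these moves was not tested. Among the 7 members also listed for SHR+ETH, 1 was called between SHR+ETH and SHR, 0 at a pseudocount of 0.1, 0 when low values were kept, 3 after stricter filtering, 3 by the robust fit and 0 to 2 when each library was left out, and the cause was not tested. Under quantile normalization or equal sums the member called was MERGE.144.1 instead. Shared transcripts called between SHR+ETH and SHR numbered 67, and from 7 without SHR 41 to 70 without SHR+ETH 58 when each library was left out. In those 2 fits 179 and 188 transcripts were tested instead of 199. Pairs of members moving together in both strains numbered 68, 69 with a pseudocount of 0.1, 52 after centring on library medians, 61 after scaling to equal sums, 41 by Spearman's rho, 18 at a limit of 0.9 and 60 to 97 when each library was left out (5 animals in that strain). Of the 68 pairs 50 were kept without SHR 48 or SHR 60 and 55 to 67 without any other library. No paired analysis was possible because the labels of WKY and SHR share only the number 3 and those of SHR and SHR+ETH share none. Depth is unknown, so no counting error can be given.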

Other observations

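Some members were near 0 in part of the SHR animals and abundant in the others, and these were picked after their values were seen. ENSRNOT00000080892 was at 402, 0.578, 0.478, 0.535, 0.638 and 512 in SHR 3, 40, 41, 48, 59 and 60, and between 107 and 551 in WKY. ENSRNOT00000054544 was at 127, 86.0, 0.278, 0.259, 0.293 and 56.1 in the same SHR animals and between 68.8 and 139 in WKY. SHR 41, SHR 48 and SHR 59 were under 1 for both, and SHR 40 for ENSRNOT00000080892 only. MERGE.25929.2, also picked after its values were seen, was instead spread over the SHR animals. It was at 8.82, 41.6, 20.1, 3.44, 0.137 and 13.9 in SHR and between 20.1 and 146 in WKY. Only SHR 59 was near 0 for it.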
